A study of Homo sapiens with 17 samples.

Results

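The HOX genes of the 4 clusters are the 39 homeobox genes of the HOXA, HOXB, HOXC and HOXD clusters, each named by its cluster letter and a paralogue number. They were taken by symbol from the 34496 gene rows of the deposited count table, and all 39 had a row. RNA was sequenced from head and neck cancer cell lines, in 10 libraries. Cal27, which was derived from a squamous carcinoma of the tongue, was compared with a derivative labelled as an NSD1 knockout (here "the labelled knockout"). In 1 culture set, cells had received DMSO, the solvent control, or EPZ-6438 (tazemetostat), an inhibitor of EZH2. It held 2 Cal27 libraries and 2 of the labelled knockout with DMSO, and 2 of the labelled knockout with EPZ-6438. The titles of the remaining libraries name no treatment, and these are called the untreated set here. It held 1 library each of Cal27, the labelled knockout, SKN3 and BICR78, the last 2 being other head and neck cancer lines. The titles do not state which libraries were cultured together. No Cal27 library without the knockout label received EPZ-6438, so the inhibitor was measured only in the labelled knockout. Dose, duration, the way the knockout was made, and whether it is a clone or a pool are not stated in the labels. Nor do the labels tie replicates to separate cultures, so a p-value here reflects the spread between libraries, which could be technical only.

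HOX proteins are homeodomain transcription factors that give cells of the embryo their position along the head-to-tail axis and along the limb. Genes stand in each cluster in the order in which they are used, with low paralogue numbers toward the head and high numbers toward the tail and the limb tip, and many adult epithelia keep part of this pattern. The clusters are classic targets of Polycomb repressive complex 2 (PRC2), whose enzyme EZH2 places a repressive methyl mark on histone H3, and of trithorax (MLL) complexes, which act against it. NSD1 methylates another lysine of the same histone.

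The 39 genes were placed on hg38, the build of the count table per the submitters' processing notes, with RefSeq coordinates of GRCh38.p14. The 11 HOXA genes lie on chromosome 7, the 10 HOXB genes on chromosome 17 from 48528526 to 48728750, the 9 HOXC genes on chromosome 12 from 53938831 to 54056030, and the 9 HOXD genes on chromosome 2 from 176087487 to 176190907. Annotated spans overlap in 8 pairs that involve 11 genes: HOXA3 with HOXA4, HOXA5 and HOXA6, HOXB3 with HOXB4, HOXC4, HOXC5 and HOXC6 with each other, and HOXD3 with HOXD4. Counts of these 11 genes are uncertain to the extent that shared reads could be assigned to either gene. The labels do not state the strand setting of the counting, so reads of a HOX gene and of an antisense transcript across it cannot be told apart. None of the 18 antisense and long noncoding RNAs of the clusters that were looked up, such as HOTAIR and HOTTIP, had a row under the symbol used. They could therefore not be analysed here.

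RefSeq promoter entries matched 20 of the 39 genes, in 27 promoters. The 250 bases before the start site held a median of 19 CG dinucleotides in these HOX promoters and 11 in all 35116 promoters of the table. Of these, 3 are printed because their genes lay among those with changing levels in the labelled knockout, a choice made after the values were seen. HOXC4 and HOXC5 share 1 promoter entry. All are on the plus strand, 5′ to 3′, with each CG in capitals.
HOXC4, chr12:54016638-54016887: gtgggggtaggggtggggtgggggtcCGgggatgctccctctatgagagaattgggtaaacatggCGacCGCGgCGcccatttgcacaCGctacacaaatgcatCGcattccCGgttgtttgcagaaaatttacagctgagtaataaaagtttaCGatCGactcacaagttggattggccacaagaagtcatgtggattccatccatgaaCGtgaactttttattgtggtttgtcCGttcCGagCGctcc
HOXD1, chr2:176188418-176188667: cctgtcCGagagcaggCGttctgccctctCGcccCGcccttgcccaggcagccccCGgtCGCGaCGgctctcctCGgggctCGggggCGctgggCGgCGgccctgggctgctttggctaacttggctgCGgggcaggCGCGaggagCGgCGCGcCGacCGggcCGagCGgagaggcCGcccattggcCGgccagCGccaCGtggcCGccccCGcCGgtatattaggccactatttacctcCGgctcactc
HOXD8, chr2:176129455-176129704: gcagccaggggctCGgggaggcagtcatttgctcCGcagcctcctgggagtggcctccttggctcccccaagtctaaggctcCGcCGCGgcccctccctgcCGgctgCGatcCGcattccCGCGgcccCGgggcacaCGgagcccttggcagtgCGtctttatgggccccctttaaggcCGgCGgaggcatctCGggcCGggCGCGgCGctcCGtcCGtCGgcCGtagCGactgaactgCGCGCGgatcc
The HOXC4 window held 14 CG, a number reached by 44.8% of all promoters. The windows of HOXD1 and HOXD8 held 31 and 28, reached by 10.9% and 15.9%. None of the 3 contained TATAAA on either strand, which was present in 5 HOX promoters and in 10.7% of all promoters. The letters TGATTNAT, a short form of the joint HOX and PBX recognition sequence in which N is any base, were in none of the 3, in 2 HOX promoters and in 2.48% of all. A match or its absence describes these letters only.

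Total counts were 11745655 to 15509079 per library with DMSO or EPZ-6438, and 17587063 to 21738951 per untreated library. Levels are CPM, counts scaled with TMM to one common library size over the 10 libraries. They are not divided by gene length, so levels were compared within a gene and not between genes. NSD1 was higher in the labelled knockout than in Cal27, at 164 to 165 against 113 to 114 CPM with DMSO and at 203 against 149 CPM untreated, so gene counts do not check the label, and transcript structure was not measured. EZH2 was at 54.4 to 64.4 CPM in the libraries with DMSO or EPZ-6438 and was not called in any contrast. Of 11 squamous epithelial markers, 11 were at 1 CPM or more in every library. Their summed level was 25700 CPM in untreated Cal27, 9440 to 9540 CPM with DMSO, 4910 to 5080 CPM in the labelled knockout with DMSO and 3630 to 3650 CPM with EPZ-6438. KRT5 alone gave 11300 CPM of the sum in untreated Cal27, and single markers went both ways. In the labelled knockout with DMSO 7 fell and 3 rose (KRT8, KRT18 and EPCAM), where 19.5% and 16.4% of all tested genes did. With EPZ-6438 7 fell and 2 rose (KRT6A and KRT17), where 23.9% and 25.6% of all tested genes did.

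At a threshold of 1 CPM, between 24 and 29 of the 39 HOX genes were detected per library, when 35.1% to 38.6% of all 34496 genes were. A core of 19 was detected in every library. It included HOXA2 to HOXA5, HOXA7, HOXA9, HOXA10, HOXA11, HOXB6, HOXB7, HOXB9, HOXC6, HOXC10, HOXC13, HOXD9, HOXD10, HOXD11 and HOXD13. Another 8 were detected in none: HOXB1, HOXB2, HOXB4, HOXC5, HOXC12, HOXD3, HOXD4 and HOXD12. The other 12 crossed the threshold in some libraries. In untreated Cal27 the gene just under it was HOXA13 at 0.952 CPM and the gene just above it was HOXB5 at 1.57 CPM. Within the HOXC cluster, 6 of 9 genes were detected in both Cal27 DMSO libraries, 3 and 4 in the labelled knockout with DMSO, and 6 in both libraries with EPZ-6438.

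**Figure D1:**
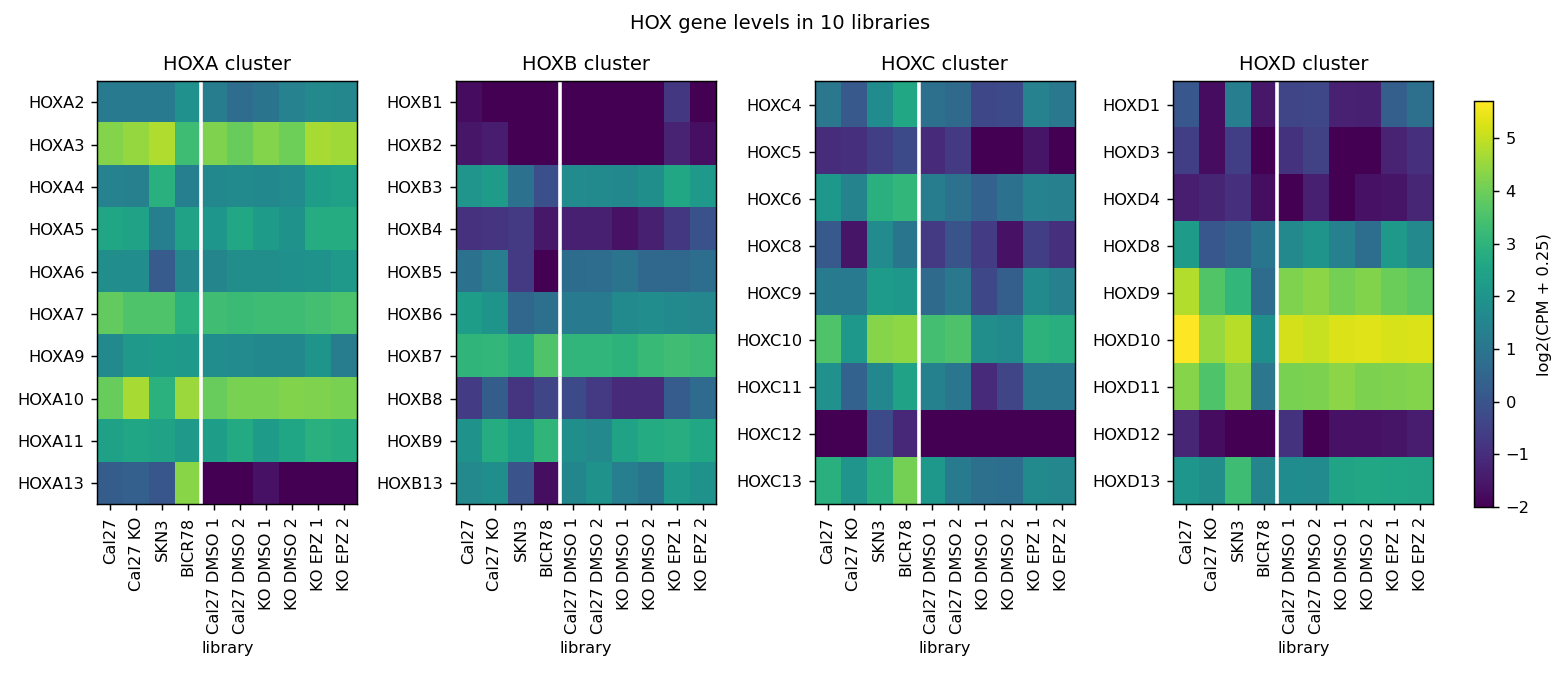
Levels of HOX genes in the 10 libraries, 1 panel per cluster, genes in order of paralogue number and libraries in columns (KO, labelled knockout; the white line separates untreated libraries from those with DMSO or EPZ-6438). Colour is log2(CPM + 0.25); HOXC10 darkens in the labelled knockout with DMSO, HOXD9, HOXD10 and HOXD11 darken in BICR78, and HOXA13 is bright in BICR78 only.

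The first comparison asked which HOX genes differ between the labelled knockout and Cal27, both with DMSO. Of the 6 tested HOXC genes 4 fell in the labelled knockout (HOXC4, HOXC10, HOXC11 and HOXC13) and none rose, where 19.5% of all tested genes fell. HOXC6 and HOXC9 did not pass the test, and the calls of HOXC4 and HOXC13 were lost in 6 and 8 of 16 alternatives run. HOXB9 and HOXD13 rose, and no tested HOXA gene was called. HOXC10, a gene of lumbar and hindlimb patterning, had 10.4 and 11.5 CPM in the Cal27 libraries and 3.27 and 2.92 CPM in the labelled knockout. HOXC11, which is also used in the hindlimb, had 2.35 and 1.79 CPM against 0.234 and 0.511 CPM. Both genes had every labelled knockout library below every Cal27 library. So did HOXA9, HOXB8, HOXB13, HOXC9, HOXD1 and HOXD8, which were not called, and the share of all genes separated in this way was not computed.

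The test was edgeR's quasi-likelihood F test on all 13241 genes that passed its low-count filter, with the 6 libraries fitted together and Benjamini-Hochberg adjustment over those genes. A gene is said to rise or fall only at an adjusted p below 0.05. Of the 39 HOX genes, 29 passed the filter. The 10 left out were HOXA13, HOXB1, HOXB2, HOXB4, HOXC5, HOXC8, HOXC12, HOXD3, HOXD4 and HOXD12. In all, 2 of 29 rose and 4 fell, where 16.4% of all tested genes rose and 19.5% fell. The median log2 change was -1.18 over the 6 tested HOXC genes, 0.03 over the 10 HOXA genes, 0.03 over the 7 HOXB genes, -0.01 over the 6 HOXD genes and -0.01 over all 13241 genes. By paralogue number, none of the 5 tested genes numbered 1 to 3 was called, 1 of 11 numbered 4 to 8 fell, and 3 of 13 numbered 9 to 13 fell while 2 rose.

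HOXC10 fell by 1.83 (SE 0.17) on the log2 scale, with an adjusted p of 3.5e-07 in edgeR. HOXC11 fell by 2.44 (SE 0.46, adjusted p = 0.00051). These 2 calls held under all 16 alternatives run. HOXC4 had 1.54 and 1.34 CPM in Cal27 and 0.545 and 0.584 CPM in the labelled knockout, and fell by 1.35 (SE 0.43, adjusted p = 0.023). HOXC13, a factor that activates hair keratin genes, had 4.04 and 1.94 CPM against 1.56 and 1.46 CPM, and fell by 0.99 (SE 0.35, adjusted p = 0.038). The first Cal27 library carried much of that difference: without it HOXC13 changed by -0.37 (adjusted p = 0.56).

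The other members of the cluster were not called. HOXC9, a gene of thoracic patterning, had 1.32 and 1.86 CPM in Cal27 and 0.545 and 1.02 CPM in the labelled knockout, a change of -1.01 (SE 0.42, adjusted p = 0.073). HOXC6 changed by -0.46 (SE 0.35, adjusted p = 0.35), and its libraries overlapped, at 2.13 and 1.57 against 1.09 and 1.61 CPM. The untested HOXC genes were close to the limit of detection. HOXC5 had 3 and 5 counts in Cal27 and 0 in both labelled knockout libraries, HOXC8 had 5 and 10 against 5 and 1, and HOXC12 had 0 in all 6 libraries. A count of 0 allows up to 3 counts.

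HOXB9, a gene of thoracic and rib patterning, had 3.30 and 2.83 CPM in Cal27 and 5.14 and 6.36 CPM in the labelled knockout, and rose by 0.90 (SE 0.22, adjusted p = 0.0038 in edgeR). HOXD13, which shapes the digits and the urogenital tract, had 3.08 and 3.06 CPM against 5.37 and 5.77 CPM, and rose by 0.85 (SE 0.21, adjusted p = 0.0039). Neither gene's libraries overlapped between the groups. The same held for HOXA6, HOXA10, HOXB6, HOXD10 and HOXD11, which were not called, and the share of all genes separated in this way was not computed. At the other end of the HOXD cluster, HOXD1 had 7 and 7 counts in Cal27 and 2 and 2 in the labelled knockout, a change of -1.73 (SE 0.75, adjusted p = 0.084). HOXD8 had 2.86 and 3.73 against 2.34 and 1.46 CPM, a change of -0.81 (SE 0.32, adjusted p = 0.057). HOXD9, HOXD10 and HOXD11 changed by -0.13 to 0.15 and were not called, except HOXD10 when library size alone was used for scaling (0.20, adjusted p = 0.034). HOXA genes ranged from -0.30 for HOXA5 to 0.21 for HOXA2. The remaining HOXB genes ranged from -1.07 for HOXB8, with 8 and 5 counts against 3 and 3, to 0.60 for HOXB6 (adjusted p = 0.10).

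Single libraries decided several of these calls. HOXC4 lost its call on leaving out any 1 of the 4 DMSO libraries (adjusted p 0.12 and 0.063 without Cal27 libraries 1 and 2, 0.10 and 0.093 without labelled knockout libraries 1 and 2). HOXC13 also lost its call without labelled knockout library 1 (0.11) or 2 (0.15) or inhibitor library 1 (0.056) or 2 (0.053), HOXB9 lost it without labelled knockout library 2 (change of 0.74, adjusted p = 0.053), and HOXD8 gained one without labelled knockout library 1 (-1.18, adjusted p = 0.039). With DESeq2, HOXC4 and HOXC13 were not called.

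**Figure D2:**
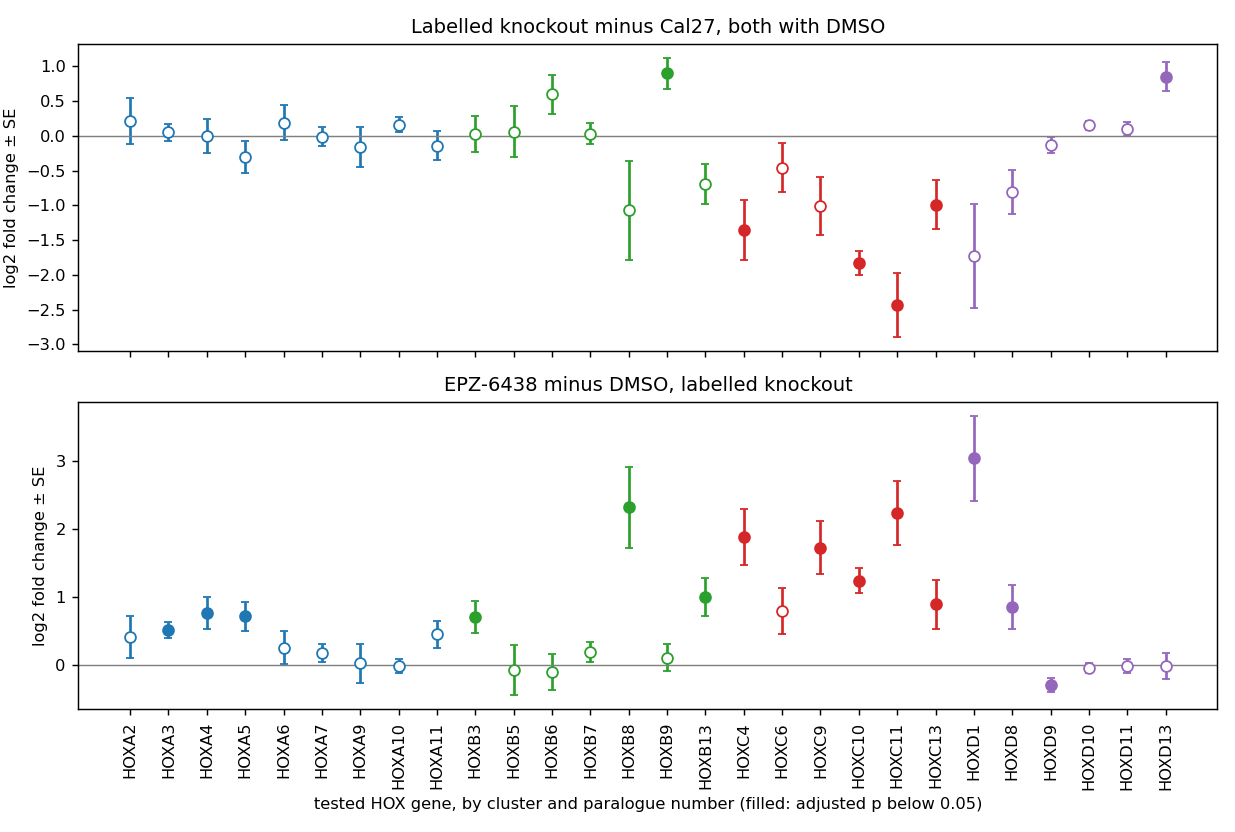
Log2 fold change with its SE for tested HOX genes, by cluster and paralogue number; the upper panel shows the labelled knockout minus Cal27 with DMSO and the lower panel EPZ-6438 minus DMSO in the labelled knockout. Filled symbols have an adjusted p below 0.05; all 6 HOXC points lie below 0 in the upper panel and above 0 in the lower, and the panels share the labelled knockout DMSO libraries.

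The second comparison asked which HOX genes changed when the labelled knockout received EPZ-6438. Of the 29 tested genes 13 rose and 1 fell, where 25.6% of all tested genes rose and 23.9% fell. HOXC4, HOXC9, HOXC10, HOXC11 and HOXC13 rose, as did HOXA3, HOXA4, HOXA5, HOXB3, HOXB8, HOXB13, HOXD1 and HOXD8. Of these, HOXB8 and HOXD1 passed the low-count filter only through the inhibitor libraries, where they were high. Their entry into the test was therefore not independent of their rise. HOXD9 fell. The median log2 change was 1.48 over the 6 tested HOXC genes, 0.33 over HOXA, 0.19 over HOXB, -0.02 over HOXD, 0.45 over all 29 and 0 over all tested genes. By paralogue number, 3 of 5 tested genes numbered 1 to 3 rose, 5 of 11 numbered 4 to 8, and 5 of 13 numbered 9 to 13.

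In the HOXC cluster, HOXC10 had 3.27 and 2.92 CPM with DMSO and 7.68 and 7.02 CPM with EPZ-6438, and rose by 1.24 (SE 0.18, adjusted p = 2.9e-05 in edgeR). HOXC11 went from 0.234 and 0.511 CPM to 1.79 and 1.80 CPM, a rise of 2.23 (SE 0.47, adjusted p = 0.00085). HOXC4 had 0.545 and 0.584 CPM with DMSO and 2.39 and 1.87 CPM with the inhibitor, and rose by 1.88 (SE 0.41, adjusted p = 0.0011). For these 3 genes both inhibitor libraries lay above both DMSO libraries, as they did for HOXC6, which was not called. HOXC9 had 0.545 and 1.02 CPM with DMSO and 2.99 and 2.32 CPM with EPZ-6438, and rose by 1.72 (SE 0.39, adjusted p = 0.0015). HOXC13 rose by 0.89 (SE 0.36, adjusted p = 0.049), from 1.56 and 1.46 to 2.90 and 2.70 CPM. HOXC6 changed by 0.79 (SE 0.34, adjusted p = 0.064), with 2.39 and 2.32 CPM under the inhibitor. HOXC5, with 1 and 0 counts, and HOXC8, with 5 and 4, remained near the limit of detection.

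The summed level of the 9 HOXC genes was 22.4 and 21.1 CPM in Cal27 with DMSO, 7.63 and 8.18 CPM in the labelled knockout with DMSO, and 20.7 and 18.3 CPM with EPZ-6438. Sums of the HOXD genes stayed between 79.0 and 83.7 CPM in the same 6 libraries. HOXA sums were 68.6 to 73.3 CPM in the 4 DMSO libraries and 90.4 and 86.9 CPM with EPZ-6438, and HOXB sums 21.1 to 25.2 CPM and 32.6 and 29.1 CPM. In bulk RNA, fewer cells expressing a gene and less RNA per cell cannot be told apart. Fibroblast markers moved with the HOXC sums in these 3 groups, at 19.1 to 20.7, 7.52 to 9.96 and 21.4 to 25.3 CPM. They did not in the untreated pair. There HOXC sums were 31.2 CPM in Cal27 and 14.7 CPM in the labelled knockout, and fibroblast sums 26.6 and 27 CPM. Of the 8 markers only COL1A1 and COL1A2 reached 1 CPM in every library. THY1 was at 0 or 0.0734 CPM in the 6 DMSO and inhibitor libraries and PDGFRA at 0.224 CPM or less. Immune markers summed to 82.0 to 82.4, 177 to 182 and 230 to 237 CPM in the same 3 groups, from CD68, CD14 and LAPTM5. PTPRC was at 0.514 CPM or less and MS4A1 at 0. Their part in the HOX values was not tested.

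Among the other clusters, the largest tested change was at the low-numbered end of HOXD, in a gene that entered the test only through its inhibitor libraries. HOXD1 had 2 and 2 counts with DMSO and 12 and 24 with EPZ-6438, or 0.156 and 0.146 against 1.02 and 1.55 CPM, and rose by 3.04 (SE 0.63, adjusted p = 0.00069 in edgeR). HOXD8 rose by 0.85 (SE 0.32, adjusted p = 0.034), from 2.34 and 1.46 to 4.10 and 2.83 CPM. HOXD9, a limb gene, went the other way, from 16.7 and 18.7 to 15.4 and 13.6 CPM, and fell by 0.30 (SE 0.11, adjusted p = 0.033). HOXD10, HOXD11 and HOXD13 changed by -0.05 to -0.02 and were not called.

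HOXB8 had 3 and 3 counts with DMSO and 11 and 21 with EPZ-6438 (0.234 and 0.219 against 0.939 and 1.35 CPM), and rose by 2.32 (SE 0.60, adjusted p = 0.0040 in edgeR). HOXB13, a regulator of prostate development, rose by 0.99 (SE 0.28, adjusted p = 0.0074), from 2.18 and 1.75 to 4.27 and 3.61 CPM. HOXB3, which patterns the hindbrain and pharyngeal arches, rose by 0.70 (SE 0.24, adjusted p = 0.022), from 2.80 and 3.29 to 5.8 and 4.25 CPM. In each of these 3 genes both inhibitor libraries were higher than both DMSO libraries. The same held for HOXA2, HOXA6, HOXA7, HOXA11, HOXB7 and HOXC6, which were not called, and the share of all genes separated in this way was not computed.

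In the HOXA cluster the called genes were neighbours. HOXA3, needed for pharyngeal organs such as the thymus, rose by 0.51 (SE 0.12, adjusted p = 0.0016 in edgeR), from 19.2 and 15.6 to 25.5 and 24.1 CPM. HOXA4 rose by 0.76 (SE 0.23, adjusted p = 0.011), from 2.8 and 3 to 4.69 and 5.09 CPM. HOXA5, which acts in lung development, rose by 0.71 (SE 0.22, adjusted p = 0.014), from 4.52 and 3.51 to 6.49 and 6.63 CPM. The spans of HOXA4 and HOXA5 lie inside that of HOXA3. The other 7 tested HOXA genes changed by -0.02 to 0.45 and were not called. HOXA13 had 1 and 0 counts with DMSO and 0 in both inhibitor libraries.

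HOXC4, HOXC9, HOXC10, HOXC11 and HOXD1 kept their call under all 15 alternatives run. Without DMSO library 1, HOXA4 (0.71, adjusted p = 0.056), HOXB3 (0.60, 0.12) and HOXC13 (0.93, 0.12) were no longer called. Without DMSO library 2 the same held for HOXA5 (0.53, adjusted p = 0.13), HOXB13 (0.84, 0.065), HOXC13 (0.84, 0.17), HOXD8 (0.54, 0.25) and HOXD9 (-0.22, 0.22). Without inhibitor library 1 it held for HOXB3 (0.48, adjusted p = 0.20), HOXB13 (0.87, 0.055), HOXC13 (0.84, 0.15) and HOXD8 (0.58, 0.24). Without inhibitor library 2 it held for HOXA4 (0.69, adjusted p = 0.079), HOXA5 (0.69, 0.073), HOXB8 (2.01, 0.068), HOXC13 (0.94, 0.12) and HOXD9 (-0.21, 0.24). DESeq2 called HOXA3, HOXC4, HOXC9, HOXC10, HOXC11 and HOXD1.

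**Figure D3:**
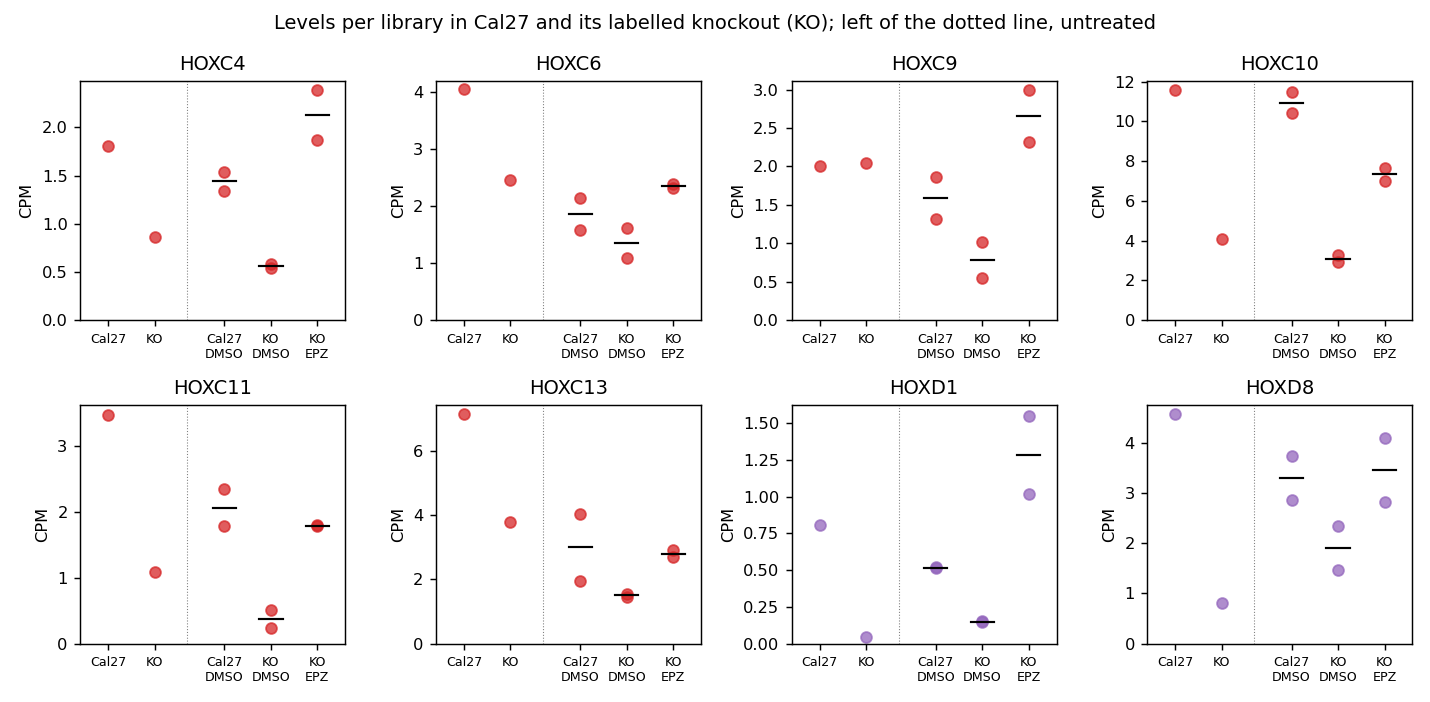
CPM per library of the 6 tested HOXC genes, HOXD1 and HOXD8 in Cal27 and its labelled knockout (KO); points are libraries, black bars are means of 2 libraries, and each vertical axis starts at 0. HOXC10 and HOXC11 are lower in both labelled knockout DMSO libraries than in both Cal27 DMSO libraries and higher again with EPZ-6438, and the single untreated libraries to the left of the dotted line show the same order for HOXC10, HOXC11 and HOXD8.

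The third comparison set the labelled knockout with EPZ-6438 against Cal27 with DMSO. It shares libraries with both comparisons above. Of the 29 tested genes 6 rose (HOXA3, HOXA4, HOXB3, HOXB9, HOXD1 and HOXD13) and 2 fell (HOXC10 and HOXD9), where 26.1% of all tested genes rose and 25.9% fell. HOXC10 stayed lower than in Cal27, at 7.68 and 7.02 against 10.4 and 11.5 CPM, a fall of 0.59 (SE 0.15, adjusted p = 0.0037 in edgeR); the call was lost with DESeq2 and with glmTreat against a log2 fold of 0.5. The other 5 tested HOXC genes were not called, and the median of the 6 was 0.12. HOXD1, which entered the test only through its inhibitor libraries, was higher, at 1.02 and 1.55 against 0.514 and 0.522 CPM. HOXB9 rose by 0.99 (SE 0.22, adjusted p = 0.00092) and kept its call under all 15 alternatives run.

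Calls of this comparison also rested on single libraries. Without Cal27 library 1, HOXA4 (0.71, adjusted p = 0.056), HOXB3 (0.76, 0.056) and HOXD1 (1.30, 0.14) were no longer called. Without Cal27 library 2 this held for HOXB3 (0.71, adjusted p = 0.069) and HOXD1 (1.32, 0.14), while HOXA5 was called (0.74, 0.027). Leaving out labelled knockout DMSO library 1 or 2 ended the call of HOXD1 (adjusted p = 0.053 and 0.052). Without inhibitor library 1, HOXB3 (0.52, adjusted p = 0.16) lost its call, and without inhibitor library 2, HOXA4 (0.69, 0.075), HOXD1 (0.96, 0.30) and HOXD9 (-0.33, 0.054) did.

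The untreated pair gave a second look at the labelled knockout, with 1 library per group and therefore no replicate check of its own. Among 31 HOX genes with at least 10 counts in either library, 7 were at least 2-fold lower in the labelled knockout (HOXC8, HOXC10, HOXC11, HOXD1, HOXD8, HOXD9 and HOXD10) and HOXB8 was higher, against 10.4% and 6.68% of all genes with as many counts. HOXC10 was at 11.6 CPM in Cal27 (95% Poisson interval 10.2 to 13.2) and 4.09 CPM in the labelled knockout (3.29 to 5.02), 2.84-fold lower. HOXC11 went from 73 to 24 counts, 3.18-fold lower, and HOXC4 from 38 to 19, 2.1-fold lower before the prior count was added. HOXC13 was 1.89-fold lower, with 150 against 83 counts. HOXC9 did not follow, with 42 against 45 counts, and HOXB9 was 1.87-fold higher, with 74 against 145.

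The HOXD cluster differed between the culture sets. Untreated Cal27 had 51.7 CPM of HOXD10 and the untreated labelled knockout 22.7 CPM, whereas with DMSO the values were 36.8 and 33.3 against 38.8 and 39.6 CPM. HOXD9 had 27.6 against 11.9 CPM untreated, and 18.4 and 20.1 against 16.7 and 18.7 CPM with DMSO. HOXD11 had 19.5 against 11.7 CPM untreated, and 17.5 and 17.8 against 20.2 and 17.9 CPM with DMSO. HOXD8 went from 96 to 18 counts in the untreated pair and HOXD1 from 17 counts to 1. The summed HOXD level was 109 against 50.6 CPM untreated. Listed genes flanking HOXD were also lower in the untreated labelled knockout. NFE2L2 had 168 against 65 CPM, LNPK 42 against 17.3 CPM and MTX2 48.6 against 15.8 CPM. ATF2 had 46.8 against 24.9 CPM and ATP5MC3 272 against 96.1 CPM, while EVX2 had 0 in both. With DMSO, LNPK, MTX2 and ATF2 were not called, and NFE2L2 and ATP5MC3 fell by 0.25 and 0.32. The lower untreated level was thus not particular to HOX genes, and its cause was not tested.

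Whether the knockout effect differed between the sets was tested with edgeR on 8 libraries, in which the single untreated libraries are assumed to vary like the replicated ones. Of 31 tested HOX genes 6 were called, where 29.8% of all tested genes were. HOXD8, HOXD9, HOXD10, HOXD11 and HOXD13 were more negative in the untreated pair, and HOXA10 more positive. The difference between effects was -1.34 (SE 0.12, adjusted p = 5e-07) for HOXD10 and -1.09 (SE 0.17, adjusted p = 0.00017) for HOXD9. None of the 7 tested HOXC genes was called; for HOXC10 the difference was 0.32 (SE 0.27, adjusted p = 0.40), and for HOXC11 0.78 (SE 0.65, adjusted p = 0.41). In the same fit the untreated effect was -1.50 (SE 0.20, adjusted p = 1.9e-05) for HOXC10, -1.66 (SE 0.43, adjusted p = 0.0050) for HOXC11, -2.47 (SE 0.42, adjusted p = 2e-04) for HOXD8 and 0.91 (SE 0.25, adjusted p = 0.0076) for HOXB9. Squamous marker sums also differed between the sets, at 25700 against 6170 CPM in the untreated pair and 9440 to 9540 against 4910 to 5080 CPM with DMSO. Of these markers KRT8 (328 against 953 CPM), KRT18 (289 against 755 CPM), CDH1 and EPCAM were higher in the untreated labelled knockout, and the others were lower. The part of squamous markers in the HOXD values was not tested. The endothelial marker sum was 86.5 CPM in the untreated labelled knockout, of which CDH5 gave 86.1 CPM, and 5.52 to 29.0 CPM elsewhere.

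**Figure D4:**
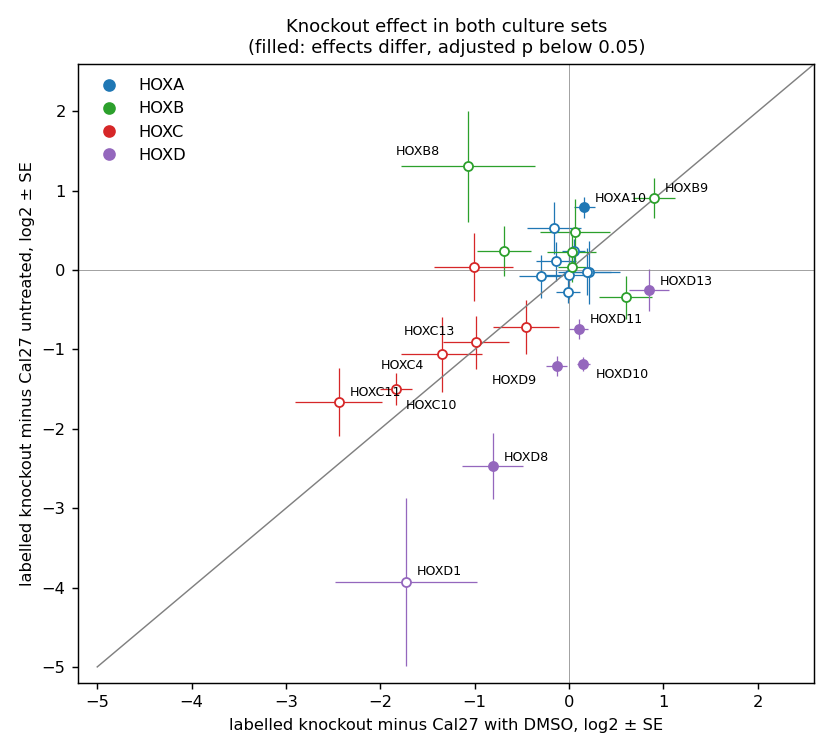
Knockout effect with DMSO (horizontal, log2 ± SE, from the 6-library fit) against the untreated pair (vertical, log2 ± SE, from the 8-library fit) for HOX genes tested in both; the diagonal marks equal effects and filled symbols have a difference with an adjusted p below 0.05. The filled points HOXD8 to HOXD11 and HOXD13 lie below the diagonal and HOXA10 above it; HOXC13, HOXC4 and HOXB9 lie near it, and HOXC10 and HOXC11 lie above it with open symbols.

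HOXA13, which acts with HOXD13 in the limb tip and urogenital tract, separated the sets in another way. It had 20 counts in untreated Cal27 and 23 in the untreated labelled knockout, and 0, 0, 1, 0, 0 and 0 counts in the 6 DMSO and inhibitor libraries. Of 12110 genes with 20 or more counts in both untreated libraries, 19 (0.157%) had at most 1 count in each of those 6, with limits chosen after the HOXA13 counts were seen.

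SKN3 and BICR78 were each compared with untreated Cal27, again with 1 library per line, so the differences are descriptions. BICR78 carried a different high-numbered profile: HOXA13 was at 19.7 CPM (95% Poisson interval 17.8 to 21.8) against 0.952 CPM (0.581 to 1.47) in Cal27, 20.7-fold higher, and was at 0.791 CPM in SKN3. HOXD9, HOXD10 and HOXD11 were 19.7-fold, 15.5-fold and 10.7-fold lower in BICR78, at 1.40, 3.33 and 1.82 CPM. The summed HOXD level was 11 CPM in BICR78, 69.9 CPM in SKN3 and 109 CPM in Cal27, and HOXC sums ran the other way, at 63.4, 48.1 and 31.2 CPM. NSD1 was at 0.468 CPM in BICR78 and 78.1 CPM in SKN3.

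Of 32 HOX genes with enough counts in BICR78 or Cal27, 5 were at least 2-fold higher in BICR78 (HOXA13, HOXB9, HOXC4, HOXC6 and HOXC13) and 9 lower (HOXB3, HOXB5, HOXB6, HOXB13, HOXD1, HOXD8, HOXD9, HOXD10 and HOXD11), against 19.5% and 10.6% of all genes with enough counts. The share of HOX genes that was higher was below that of all genes, and the share that was lower was above it. HOXC13 was at 16.7 CPM against 7.14 CPM, and HOXC4 at 5.77 against 1.81 CPM. HOXC9 and HOXC10 were at 4.05 and 20.8 CPM, HOXC11 at 5.2 CPM. The summed HOXB level was 22.7 CPM in BICR78 and 25.2 CPM in Cal27, with single genes on either side. HOXB5 had 0 counts against 33 in Cal27, at least 10.1-fold lower when 0 is set to 3 counts, HOXB13 had 1 count against 59, and HOXB3 had 13 against 79. HOXB9, at 8 against 3.52 CPM, and HOXB7, at 11.8 against 8.04 CPM, lay above Cal27.

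In SKN3, 7 of 31 genes were at least 2-fold higher than in Cal27 (among them HOXA4, HOXC8, HOXC9, HOXC12, HOXD1 and HOXD13) and 9 lower (HOXA5, HOXA6, HOXA10, HOXB3, HOXB5, HOXB6, HOXB13, HOXD8 and HOXD9), against 22.8% and 19.8% of all genes. The share of HOX genes that was higher was near that of all genes, and the share that was lower was above it. HOXA4 had 7.22 against 2.43 CPM. HOXC8, used in brachial motor neurons, had 3 against 0.857 CPM (57 and 18 counts) and 1.72 CPM in BICR78. HOXD13 had 9.59 against 3.90 CPM and HOXD1 2.21 against 0.809 CPM, while HOXD9 had 8.28 against 27.6 CPM. HOXC12 had 11 counts against 0, at least 4.06-fold higher. HOXA6 lay below the detection threshold, at 0.896 CPM against 3.24 CPM in Cal27 and 2.70 CPM in BICR78. HOXB13 (0.738 against 2.81 CPM), HOXB5 (0.369 against 1.57 CPM) and HOXB3 (1.63 against 3.76 CPM) were lower in SKN3 as in BICR78. HOXD8 was at 1.05 CPM in SKN3, 1.72 CPM in BICR78 and 4.57 CPM in Cal27.

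**Figure D5:**
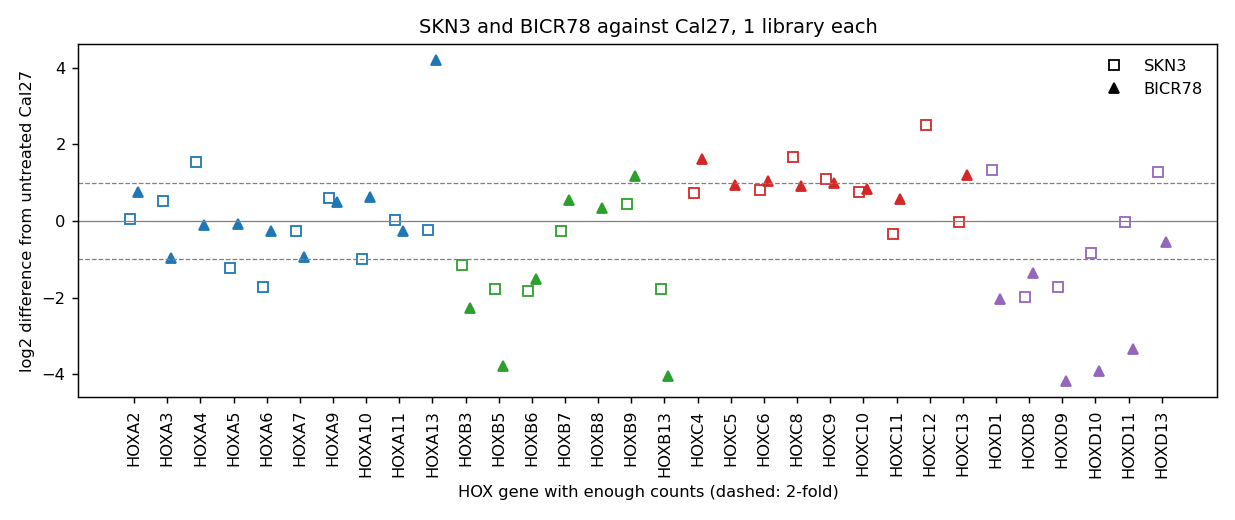
Log2 difference from untreated Cal27 in SKN3 (open squares) and BICR78 (filled triangles), 1 library each with a prior count of 2, for HOX genes with at least 10 counts in either library of a pair; dashed lines mark 2-fold. HOXA13 is highest in BICR78, and HOXD9, HOXD10 and HOXD11 lie far below 0 in BICR78.

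Genes that work with or regulate HOX were read from lists, to be set against the 16.4% of all tested genes that rose and 19.5% that fell in the labelled knockout, and the 25.6% that rose and 23.9% that fell with EPZ-6438. Of 7 tested TALE cofactors, the PBX and MEIS homeodomain partners of HOX proteins, 1 rose in the labelled knockout and 4 rose with EPZ-6438, with none falling in either, where 16.4% and 25.6% of all tested genes rose. PBX3 rose by 0.71 (SE 0.13, adjusted p = 0.00045 in edgeR), from 7.34 and 8.57 to 12.4 and 13.8 CPM, and reached 16.0 and 17.2 CPM with the inhibitor. MEIS2 rose by 0.58 (SE 0.11, adjusted p = 0.00043) with the inhibitor. The list's median was -0.01 in the knockout contrast and 0.34 in the inhibitor contrast. Of 15 tested genes flanking the clusters, 3 rose and 3 fell in the labelled knockout, and 6 rose and 2 fell with EPZ-6438. In the labelled knockout, 3 of 15 each way is near the shares of all genes. The genes that rose with EPZ-6438 included CALCOCO1, beside HOXC, at 1.06 (SE 0.08, adjusted p = 1.8e-08).

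Retinoic acid activates HOX genes in the embryo. Of the list of CDX and retinoid regulators 9 were tested, all of them retinoid genes and none a CDX gene. In the labelled knockout 4 of the 9 fell and none rose, where 19.5% of all tested genes fell. With EPZ-6438 6 rose and 1 fell, where 25.6% of all tested genes rose. CYP26B1, which degrades retinoic acid, fell by 2.69 (SE 0.56, adjusted p = 0.0012 in edgeR), from 1.76 and 1.71 to 0.156 and 0.365 CPM. ALDH1A1, which makes it, fell by 1.99 (SE 0.58, adjusted p = 0.013) and rose with EPZ-6438. CRABP2, a carrier of retinoic acid, had 6.38 and 6.65 CPM with DMSO and 35.8 and 36.2 CPM with EPZ-6438. The list's members act in opposite directions on retinoic acid, and its median was -0.03 and 0.89.

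Of 15 trithorax genes 7 rose and 1 fell in the labelled knockout, and 2 rose and 8 fell with EPZ-6438. Of all tested genes, 16.4% rose and 19.5% fell in the former, and 25.6% rose and 23.9% fell in the latter. The called rises in the labelled knockout were 0.15 to 0.31. MLLT3, an elongation factor partner of MLL fusions, fell by 0.62 (SE 0.16, adjusted p = 0.0049 in edgeR) and rose by 1.71 (SE 0.14, adjusted p = 3.2e-08) with the inhibitor. Of 12 canonical PRC1 genes, the complex that reads the mark of PRC2, 3 rose and 1 fell, and 8 rose and 1 fell with the inhibitor, against the same shares. BMI1 went from 22.9 and 27.6 to 49.4 and 50.9 CPM with EPZ-6438, and CBX2 from 6.38 and 6.79 to 13 and 16.5 CPM. Of 12 PRC2 genes 3 rose and 1 fell in the labelled knockout, and 2 rose and 2 fell with the inhibitor, the latter below the shares of all genes in both directions. EPOP, an accessory PRC2 subunit, had 11.2 and 11.7 CPM in Cal27, 7.32 and 6.28 CPM in the labelled knockout and 12.6 and 12.7 CPM with the inhibitor.

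Other developmental homeobox and patterning factors served for comparison with HOX. Of 32 tested, 3 rose and 9 fell in the labelled knockout, with a median of -0.28, and 8 rose and 4 fell with EPZ-6438, with a median of -0.13. Of all tested genes 16.4% rose and 19.5% fell, and 25.6% rose and 23.9% fell, so the share that rose with EPZ-6438 was near that of all genes. IRX1 fell by 2.79 (SE 0.30, adjusted p = 1.7e-06 in edgeR), from 6.61 and 8.05 to 1.32 and 0.804 CPM, and stayed at 0.427 and 0.773 CPM with the inhibitor. IRX4 fell by 2.08 (SE 0.25, adjusted p = 4.4e-06) and rose by 0.81 (SE 0.28, adjusted p = 0.022) with the inhibitor, at 2.39 and 3.35 CPM against 7.12 and 6.86 CPM in Cal27.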

How the data were processed

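RNA was measured in 10 libraries. Per the labels' protocols, total RNA was extracted in TRIzol and libraries were made after ribosomal RNA depletion. The submitters' processing notes name build hg38 and, with no role given, the tools featureCounts 1.6.1, HISAT2 2.1.0, Picard 2.23.1 and CASAVA 1.7. They do not state the annotation or how strand and multimapping reads were handled. The authors deposited raw counts per gene, used here as deposited, with no column left unused. The CUT&Tag samples of the series were not analysed here.

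Samples were grouped by title. The 6 DMSO and inhibitor libraries were fitted in R 4.3.3 with edgeR 4.0.16: low-count filter at its default, TMM scaling, quasi-likelihood F tests in a model of group alone, and Benjamini-Hochberg adjustment over 13241 genes. SE is the log2 change divided by the square root of F. The difference of knockout effects between culture sets used 8 libraries. Single-library pairs used log2 CPM with a prior count of 2 among genes with 10 counts or more in either library, and a 2-fold limit. Intervals are exact 95% Poisson intervals, and a count of 0 was set to 3 counts for fold limits; both cover counting error only. The tests were tested on simulated data. Replicates of each group differed beyond sampling noise (chi-square per degree of freedom 1.86, 1.77 and 2.20). This extra spread was small, with a common coefficient of variation of 2.6% in the edgeR fit, and it could be technical only.

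Without scaling factors (library size alone), 2978 of all genes rose and 2088 fell in the knockout contrast (with TMM 2169 and 2580), and 4016 rose and 2815 fell for the treated knockout against Cal27 (with TMM 3456 and 3428); medians moved by at most 0.06.

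Members, gene lists and tests were chosen with earlier results of these data known. Values in every library were planned for called HOX genes (at most 14, by size of change) and for those detected in only some of Cal27, SKN3 and BICR78; HOXA3, HOXA10, HOXD9, HOXD10 and HOXD11 were named after their values were seen. Of each list up to 4 members of lowest adjusted p were eligible, and NSD1 and EZH2 whatever their p. Alternatives were DESeq2 1.42.0, other scalings and filters, 2-group fits, a replicate block, a robust spread, glmTreat against 0.5 on the log2 scale, leaving out each library and, added after seeing the data, the untreated pair in the knockout contrast with culture set as a term. A HOX gene is counted in all totals but is not reported here by name or plotted. Promoter letters and coordinates are from RefSeq, GRCh38.p14.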

Additional observations from a re-analysis of the deposited data

Results flagged for a closer look

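For 6 of 31 tested HOX genes the difference between the labelled knockout and Cal27 was not the same in the untreated pair as with DMSO. The test was edgeR's, of the difference itself over 8 libraries. It called 29.8% of all tested genes, a larger share than of the HOX genes. The untreated effect minus the DMSO effect, on the log2 scale, was -1.34 for HOXD10 (adjusted p = 5e-07), -1.09 for HOXD9 (0.00017), -0.84 for HOXD11 (0.0013), -1.11 for HOXD13 (0.018) and -1.66 for HOXD8 (0.029). HOXA10 went the other way, at 0.62 (adjusted p = 0.010), with 14.9 against 25.6 CPM untreated and 14.9 and 17.4 against 17.5 and 18.6 CPM with DMSO. HOXD13 had 3.90 against 3.27 CPM untreated and 3.08 and 3.06 against 5.37 and 5.77 CPM with DMSO. NFE2L2, LNPK, MTX2, ATF2 and ATP5MC3, which flank HOXD, were also lower in the untreated labelled knockout than in untreated Cal27. Whether the HOXD differences belong to the wider region was not tested. Each untreated group is 1 library, and culture set, depth, treatment vehicle and any other difference between the sets cannot be told apart.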

How the results depend on the processing

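With DESeq2 in place of edgeR, HOX calls came to 2 rises and 2 falls in the knockout contrast and 6 rises and 0 falls with the inhibitor. For the treated knockout against Cal27 they came to 3 rises and 1 fall. At an unadjusted p under 0.05, 0 HOX genes fell with the inhibitor in DESeq2. The shares of all genes called with DESeq2 or glmTreat are not given here, so a drop particular to HOX genes cannot be told from a general one. Tested against a log2 fold of 0.5 with glmTreat, the counts were 0 rises and 2 falls, 6 and 0, and 1 and 0; at an unadjusted p under 0.05 the 3 counts of 0 became 2, 0 and 0. With the untreated pair added and culture set as a term, an alternative chosen after seeing the data, 1 gene rose in the knockout contrast, HOXD13 (0.46) and HOXC13 were lost and HOXD1 was called (-2.5). On leaving out each library, rises in the knockout contrast ranged from 1 to 2 and falls from 2 to 3, rises with the inhibitor from 9 to 13 and falls from 0 to 1, and rises of the treated knockout from 3 to 5 and falls from 1 to 2. In the untreated pair no HOX gene was 2-fold higher with a prior count of 5 (0) or at least 30 counts (0), since HOXB8 had 8 and 21 counts. Of 1329 values of single HOX genes under these alternatives, 1244 kept their side of the threshold, 75 lost a call, 10 gained one (HOXA5, HOXB8, HOXD1, HOXD8 or HOXD10) and 0 called values changed sign. The cause was not tested. Replicate numbers did not pair the samples (correlations of deviations 0.014, -0.044 and 0.0035), and with the replicate block the counts were those of the unblocked fit: 2 rises and 4 falls, 13 and 1, 6 and 2. Genes under about 10 counts per library, such as HOXB8, HOXC5, HOXC8, HOXD1 and HOXD3, are limited by depth.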
